A study of Homo sapiens with 20 samples.

Results

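The regions described here are the ATAC-seq peaks that lie within 100 kb of the start of 18 genes of pluripotency and mesendoderm. The genes were POU5F1, NANOG, SOX2, PRDM14, FGF4, L1TD1, ZFP42, TDGF1, DPPA4, NODAL, LEFTY1, LEFTY2, MIXL1, EOMES, TBXT, GSC, CER1 and OTX2. Gene starts were taken from the count table of the same cells, as the outermost annotated start on the coding strand, and a peak was a member when its nearest base lay within 100 kb of one. The wild type (WT) list held 385 such peaks of 222750, and the GPX2 knockout (KO) list 367 of 202374. Peaks of the 2 lists that overlapped by at least 1 base were merged into one region, which gave 443 regions near the genes of 254553 in all.

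The cells were HUES8, a human embryonic stem cell line that carries an inducible Cas9, with GPX2 either intact or deleted in homozygous clones made with several guide RNAs. Both genotypes were driven to definitive endoderm with activin A and CHIR99021 and, from day 4, were kept as spheroids in basal medium without lineage signals until day 8. For ATAC-seq, 2 WT and 2 KO libraries were made, and the authors pooled the libraries of each genotype before they called peaks. RNA-seq of day 8 had 2 libraries each of WT, KO, WT with H2O2 (10 nM in the labels, another unit in the study's methods) and KO with sodium selenite at 100 pM. The KO of the ATAC-seq was clonal line KO2 and that of the RNA-seq clonal line KO1 in the study's captions, so genotype and clone cannot be told apart, and the 2 assays did not share a KO clone. The labels name all these cells PSC, and the genotype of the KO RNA libraries was read from their titles because the genotype field gives WT for every one.

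POU5F1 (OCT4), NANOG and SOX2 are the transcription factors at the centre of the pluripotency network, which is shut down as cells leave the pluripotent state. NODAL, acting through activin receptors with the co-receptor TDGF1 (CRIPTO), induces the mesendoderm, and LEFTY1, LEFTY2 and CER1 are its secreted inhibitors. MIXL1, EOMES, TBXT (Brachyury) and GSC are transcription factors of the primitive streak, the embryonic structure from which endoderm and mesoderm emerge. ATAC-seq reads where a transposase can insert into chromatin, and a peak marks accessible DNA, often a promoter or an enhancer.

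Near these genes, accessibility was largely common to both genotypes. Of the 443 regions, 302 (68.2%) held a peak in WT and in KO, 80 (18.1%) a WT peak only and 61 (13.8%) a KO peak only. Over all 254553 regions, 21.6% held a WT peak only and 13.2% a KO peak only. With only peaks of −log10 q of at least 5, the order near the genes turned, with 13 of 129 regions WT-only (10.1%, against 18.6% of all) and 20 KO-only (15.5%, against 11.4%). Of the WT peaks near the genes, 305 of 385 (79.2%) overlapped a KO peak, where the share over all WT peaks was 75.3%. Of the KO peaks, 306 of 367 (83.4%) overlapped a WT peak, and the share over all KO peaks was also 83.4%. The peak lists carry no library-level values, so none of these differences has a replicate check or a p-value, and the read depth behind them is unknown.

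The 3 sequences below are shown as the region at the outermost start of NANOG and shared regions near NODAL and OTX2 that leaned to KO and to WT. Each is the 300 bases at the middle of the region, read 5′ to 3′ on the plus strand of hg38, and capitals mark any of 9 motifs searched on both strands. The regions were chr12:7787912-7788211 (intron of NANOG), chr10:70364367-70364666 (intron of LRRC20, near NODAL) and chr14:56912101-56912400 (intron of the antisense gene OTX2-AS1).
NANOG, region at the outer start: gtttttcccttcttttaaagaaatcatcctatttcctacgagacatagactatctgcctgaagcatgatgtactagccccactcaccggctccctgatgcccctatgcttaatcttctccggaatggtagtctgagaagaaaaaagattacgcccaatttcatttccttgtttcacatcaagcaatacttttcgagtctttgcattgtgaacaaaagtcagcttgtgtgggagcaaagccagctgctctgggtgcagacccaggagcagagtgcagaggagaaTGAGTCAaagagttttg
NODAL, higher fold in KO: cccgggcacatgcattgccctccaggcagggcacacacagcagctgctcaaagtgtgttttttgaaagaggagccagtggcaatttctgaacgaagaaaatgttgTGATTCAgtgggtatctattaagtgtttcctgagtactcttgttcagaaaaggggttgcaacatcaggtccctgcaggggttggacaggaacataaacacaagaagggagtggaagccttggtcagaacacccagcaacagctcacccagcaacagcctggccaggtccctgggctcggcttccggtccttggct
OTX2, higher fold in WT: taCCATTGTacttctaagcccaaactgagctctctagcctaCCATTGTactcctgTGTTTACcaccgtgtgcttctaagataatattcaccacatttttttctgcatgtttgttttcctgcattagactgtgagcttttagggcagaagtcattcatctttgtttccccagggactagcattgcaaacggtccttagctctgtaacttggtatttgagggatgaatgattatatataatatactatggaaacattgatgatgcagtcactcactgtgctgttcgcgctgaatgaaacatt
In these windows the SOX letters CCATTGT occurred as a pair in the OTX2 region, next to one FOXA match TGTTTAC. The letters TGANTCA, searched for AP-1 with any base at N, were found as TGAGTCA in the NANOG window and as TGATTCA in the NODAL window. The NANOG window holds neither the outermost nor the RefSeq start of the gene.

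The plot of regions per gene shows their numbers, which ranged from 14 near SOX2 to 39 near NODAL. The median over 14447 genes tested for RNA was 25 regions per window, with a 5th to 95th percentile range of 10 to 37. The share of regions with a peak in both genotypes ran from 53.8% for MIXL1 to 80.6% for LEFTY1, against a median of 69.7% and a 5th to 95th percentile range of 50 to 86.9% over those genes. WT-only regions outnumbered KO-only regions for 11 of the 18 genes, as they did over all regions (21.6% against 13.2%). KO-only regions were more frequent for 4 (PRDM14, TDGF1, EOMES and CER1), and 3 had as many of each. The same count of genes was not made over all genes. MIXL1 had the most one-sided window, with 11 WT-only regions of 26 and 1 KO-only region. Of those 11, 6 lay in introns of ACBD3, a neighbouring Golgi protein gene, and the 11 had WT folds of 1.73 to 2.38. CER1 leaned the other way, with 5 KO-only regions of 16 and 1 WT-only region. The windows of LEFTY1 and LEFTY2, which are adjacent genes, shared 26 regions, and each such region was counted once in the totals, under its nearest gene.

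**Figure D1:**
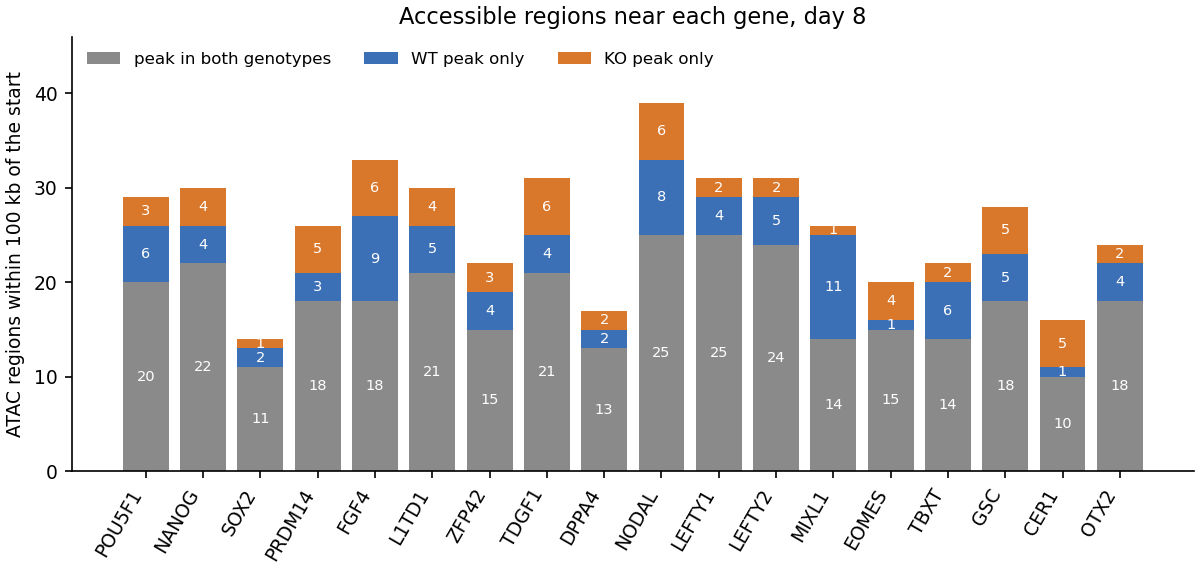
Stacked bars give, for each of the 18 genes, the number of ATAC regions within 100 kb of the start that held a peak in both genotypes (grey), in WT only (blue) or in KO only (orange). MIXL1 shows 11 WT-only regions and 1 KO-only region, and NODAL has the most regions, 39.

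Peak strength was close in the 2 genotypes wherever both had a peak. The fold enrichment is the peak caller's ratio of pileup to local background. Over the 302 shared regions, the median log2 ratio of KO to WT fold was 0.02 (5th to 95th percentile -0.24 to 0.26), and over all 166099 shared regions it was 0.02 (-0.28 to 0.31). KO fold was the higher one in 160 regions (53.0%) and the lower one in 142, where the share higher in KO over all shared regions was 53.8%. None of the 302 was over 1.5-fold higher in KO, a size that 0.219% of all shared regions reached, and none was over 1.5-fold lower, a size that 0.137% reached. At 1.2-fold, a size chosen after the data were seen, 16 were higher in KO (5.30%, against 7.54% of all) and 8 lower (2.65%, against 5.68%). The regions near the 9 pluripotency genes and those near the 9 NODAL and mesendoderm genes had medians of 0.01 (n = 159) and 0.02 (n = 143).

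**Figure D2:**
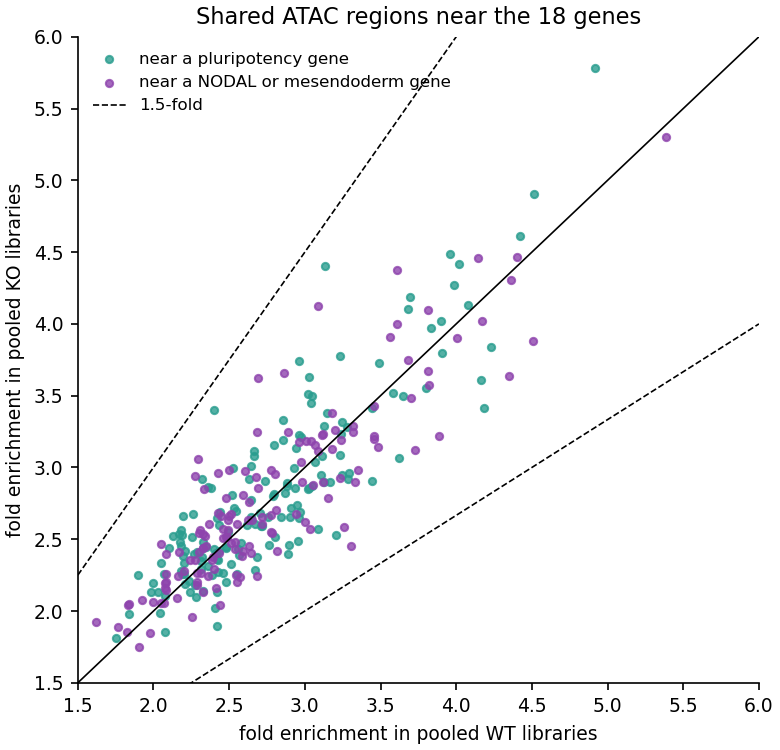
Each point is one of the 302 shared regions, by its fold enrichment in the pooled WT libraries (x) and the pooled KO libraries (y), coloured by the group of its nearest gene; the solid line marks equal fold and the dashed lines a 1.5-fold difference. All points lie between the dashed lines.

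The largest differences in fold were spread over several genes. The highest ratio belonged to a region 22442 bases upstream of POU5F1, within an exon of the long non-coding gene HCG27 (chr6:31203173-31204020), with a fold of 2.40 in WT and 3.40 in KO. A second POU5F1 region, intergenic and 76797 bases downstream (chr6:31102219-31103934), had a fold of 3.14 in WT and 4.40 in KO, a ratio that 0.708% of all shared regions reached or passed. OTX2, a homeodomain factor of the anterior epiblast and head, had a region at chr14:56887612-56888700 with 2.69 in WT and 3.63 in KO. EOMES had one at chr3:27632494-27633532, on the pseudogene TPM4P2, with 3.09 in WT and 4.13 in KO. In the other direction, a region over the far end of TBXT itself (chr6:166156930-166159723, exon) had 3.31 in WT and 2.46 in KO, the lowest ratio of all (log2 -0.43). A region 7533 bases upstream of SOX2, in an intron of SOX2-OT (chr3:181703801-181704392), had 2.42 in WT and 1.90 in KO. Among regions with a fold of at least 4, the one lowest in KO lay 55819 bases upstream of NANOG, in an intron of CLEC4C, with 4.18 in WT and 3.41 in KO. The OTX2 region whose sequence is printed had 4.35 in WT and 3.64 in KO, and the NODAL region 3.61 in WT and 4.38 in KO.

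Most regions were distal, and so were most of the strongest, but a window of 100 kb each way lies mostly beyond 10 kb. By distance from the nearest base of a region to the start, 380 of 443 lay beyond 10 kb, 45 between 1 and 10 kb, and 18 within 1 kb. The median fold was similar beyond 10 kb (2.52 in WT, 2.58 in KO) and within 1 kb (2.69 and 2.57). Neither the distance classes, their sharing, nor how often the strongest region of a window is distal was counted over all genes. For 17 of the 18 genes the region with the largest fold lay beyond 10 kb, and the exception was TDGF1, whose strongest region was 7778 bases upstream in an intron of LRRC2 (4.42 in WT and 4.61 in KO). PRDM14, a PR-domain factor that represses differentiation genes, had the largest fold of all, 4.91 in WT and 5.78 in KO, in an exon of its neighbour NCOA2, 76350 bases away. The strongest TBXT region followed, with 5.39 in WT and 5.30 in KO. A further PRDM14 region, 16625 bases upstream, had 4.51 in WT and 4.90 in KO, and an EOMES region 63063 bases downstream had 4.51 in WT and 3.88 in KO. By annotation, the middle of 204 regions was intergenic, of 182 intronic and of 57 exonic. Sharing was highest within 1 kb of a start (16 of 18 regions), then 257 of 380 beyond 10 kb and 29 of 45 between. The region nearest the inner edge of the rule lay 99933 bases from TBXT, with a fold of 2.51 in WT and 2.68 in KO, and the nearest left outside lay 100335 bases from NODAL, with 3.19 and 2.97.

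**Figure D3:**
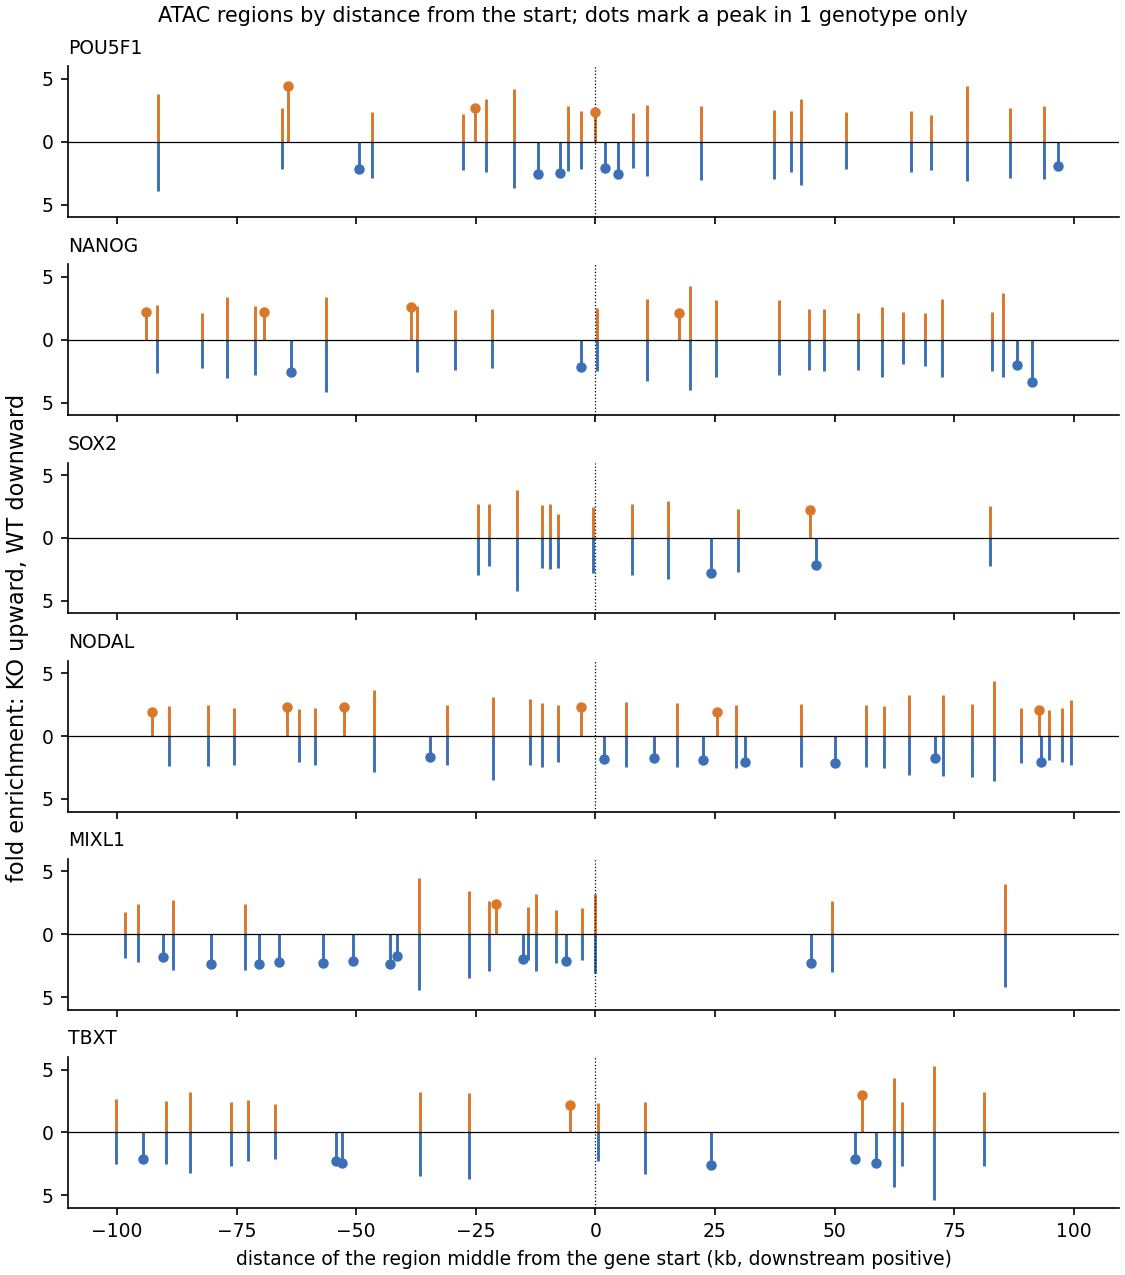
For 6 genes, each line is a region at its distance in kb from the gene start (x, downstream positive), with its KO fold enrichment drawn upward and its WT fold downward; dots mark regions with a peak in 1 genotype only. The tallest lines stand away from the start, as at TBXT (5.39 in WT, 5.30 in KO), and MIXL1 has 11 blue dots.

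Most of the starts were called accessible in both genotypes. The outermost annotated start of 15 of the 18 lay in a shared region, where 84.9% of 14447 genes tested for RNA had theirs in one. That of 1 (POU5F1) lay in a KO-only region and those of 2 (NODAL and LEFTY2) in no region. The nearest region lay 23 bases from the LEFTY2 start and 1651 bases from the NODAL start. At RefSeq starts, used after seeing the data, 12 of the 18 lay in a shared region and 6 (POU5F1, NANOG, DPPA4, NODAL, LEFTY2 and OTX2) in no region, where 89.3% of 13768 genes lay in a shared one. The 15 shared regions at the outermost starts were 864 to 4799 bases wide, with folds from 2.1 to 3.23. The ratio of KO to WT ran from -0.26 to 0.22 on the log2 scale, with 11 higher and 4 lower in KO. The middle 90% of start regions of the 14447 genes ran from -0.16 to 0.20, with a median of 0.01. How many of those were higher in KO was not counted. FGF4, a growth factor of the pluripotent epiblast, had the lowest, with 3.09 in WT and 2.57 in KO, and SOX2 was the next lowest with 2.77 and 2.46. TDGF1 had the highest, with 2.1 in WT and 2.44 in KO, and CER1 followed with 2.61 and 2.98. NANOG (2.49 in WT, 2.55 in KO), ZFP42, a zinc-finger gene known as REX1 (2.79 and 2.80), L1TD1, an RNA-binding protein gene of stem cells (2.93 and 3.00), MIXL1 (3.11 and 3.23), EOMES (2.98 and 3.04) and TBXT (2.28 and 2.35) differed little. GSC had 2.58 in WT and 2.38 in KO, while its RNA had at most 1 count in each WT and KO library.

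At POU5F1 the rule's start is an outer one, and the RefSeq start at chr6:31170682 lay in no region. The nearest region, in an intron (chr6:31169216-31170611), ended just short of that start. It was shared, with a fold of 2.74 in WT and 2.90 in KO. The KO-only region at the outer start was 308 bases wide with a fold of 2.35. POU5F1 also had the strongest KO-only region of the set, upstream of the gene. Its fold was 4.47, a value reached by 24 of all 33493 KO-only regions (0.0717%). The next KO-only region, near TBXT, had a fold of 2.99. Among WT-only regions, one downstream of NANOG had the largest fold, 3.38, reached by 189 of 54961 WT-only regions (0.344%). This and the POU5F1 region were the 2 one-genotype regions with a fold of 3 or more. As over all regions, one-genotype regions were narrow and weak, with a median width of 372.5 bases in WT and 311 in KO, against 1001.5 bases for shared regions. For NODAL, the nearest region to the start was WT-only, 1651 bases inside the gene with a fold of 1.81. A shared region over an exon (chr10:70440166-70442962) had 2.43 in WT and 2.68 in KO. Of the 25 shared regions near NODAL, 18 had the higher fold in KO, where 53.8% of all shared regions did. The median log2 ratio near NODAL was 0.06, the highest of the 18 genes.

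Per gene, the median log2 ratio of shared regions ran from -0.11 for SOX2 to 0.06 for NODAL, with 9 genes above 0 and 9 below. Over the 14447 genes, the 5th to 95th percentile of such medians was -0.06 to 0.09, and 16 of the 18 genes lay inside it. SOX2 and EOMES (-0.09) lay below.

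The letters of 9 motifs occurred about as often near these genes as in all regions. The motif was counted in the 300 bases at the middle of a region on either strand. The POU octamer ATTTGCAT was in 6 of 443 (1.35%, against 1.79% of all regions), the SOX letters CCATTGT in 18 (4.06% against 4.26%) and the FOXH1 letters AATNCACA, those of the NODAL effector, in 27 (6.09% against 5.43%). The T-box letters TCACACCT were in 13 (2.93% against 2.18%), the OTX and GSC letters TAATCC in 71 (16.0% against 14.7%), the GATA letters AGATAAG in 26 (5.87% against 7.14%) and the FOXA letters TGTTTAC in 18 (4.06% against 5.91%). The letters TGANTCA, searched for AP-1 with any base at N, were in 50 (11.3% against 11.5%). The KLF letters GGGTGTGG were in 13 (2.93% against 2.68%). Of the 80 WT-only regions, 17 (21.2%) held TAATCC and none CCATTGT, which allows a share of up to 3.75% (3 counts of 80), where 16.8% and 4.45% of all WT-only regions did. Of the 61 KO-only regions, 5 (8.20%) held TAATCC and 4 (6.56%) CCATTGT, where 14.8% and 4.37% of all KO-only regions did. The motifs do not contain one another, the median GC content of the windows was 49.7% against 46.7% in all regions, and a match of letters is not a bound site.

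The same windows around other genes gave similar counts. Around 18 hepatic genes, 289 of 425 regions (68%) were shared, with a median log2 ratio of 0.03 and 1 region over 1.5-fold higher in KO. Around 18 foregut and pancreas factors, 358 of 468 (76.5%) were shared, with a median of 0.02 and 1 region over 1.5-fold lower in KO. The WT-only share was 20.5% around the hepatic and 13% around the foregut genes, on either side of the 18.1% described here. These differences could not be tested, since each genotype is a single pool.

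The RNA-seq of day 8 differed in how its libraries stood apart. Its 8 libraries held 4234408 to 8617728 counts, and their column headers carry the number 5 or 8, with 1 library of each number in every group. The first principal component, with 54.3% of the variance, separated number 5 from number 8. GPX2, the targeted gene, was at 98 and 117 CPM (counts divided by scaled library size) in WT, 25.9 and 25.2 in KO, 139 and 118 in WT with H2O2 and 37.6 and 40.5 in KO with selenite, in the order number 5, number 8. The KO libraries thus kept 140 and 106 GPX2 counts, although the study describes a homozygous deletion of the entire gene. The source of these counts was not tested. Nothing in the labels says whether the 2 libraries of a group came from separate differentiations, so the p-values measure the spread between these libraries.

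RNA of the pluripotency genes followed the library number more than the genotype. POU5F1 was at 64.2 and 2.76 CPM in WT (numbers 5 and 8) and 234 and 20.5 in KO, and reached 665 and 60.5 in WT with H2O2 and 484 and 15.5 in KO with selenite. Number 5 exceeded number 8 by 11-fold or more in every group, and the number 8 KO library lay below the number 5 WT library, so WT and KO overlapped. NANOG was at 3.32 and 0 CPM in WT, 17.4 and 0.952 in KO, 61.7 and 4.69 with H2O2 and 47.8 and 0.818 with selenite. SOX2 was at 2.77 and 0 in WT, 12.6 and 0.952 in KO, 38.3 and 5.03 with H2O2 and 35.5 and 0.350 with selenite. For both, a WT library had no count, and the order of the groups was the same within number 5. PRDM14 was at 1.48 and 0 in WT and 8.14 and 0.238 in KO, and FGF4 at 0.554 and 0 in WT and 3.52 and 0.476 in KO. TDGF1 was at 18.6 and 2.58 in WT and 25.9 and 4.28 in KO. L1TD1 varied less between the numbers, at 100 and 36.8 in WT and 132 and 68.0 in KO.

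ZFP42 and DPPA4, a chromatin-associated protein gene of pluripotent and germ cells, behaved differently. ZFP42 was at 171 and 177 CPM in WT, 184 and 210 in KO, 200.9 and 201.8 with H2O2 and 202.02 and 190.9 with selenite. Both KO libraries lay above both WT libraries, and the library number made little difference, with a ratio of 0.878 to 1.06. DPPA4 was at 65.5 and 56.9 in WT and 92.7 and 48.5 in KO, so KO was higher in number 5 and lower in number 8.

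Among the mesendoderm genes, EOMES was at 14.9 and 0.184 CPM in WT, 42.7 and 1.43 in KO, 103 and 11.2 with H2O2 and 90.2 and 5.84 with selenite. MIXL1 was at 2.21 and 0.184 in WT and 13.7 and 2.38 in KO, and the KO libraries lay just above both WT libraries. NODAL was at 9.60 and 2.03 in WT and 27 and 3.33 in KO. OTX2 was at 6.46 and 4.05 in WT and 24.6 and 5.95 in KO. CER1 was at 1.85 and 0 in WT and 7.22 and 3.09 in KO, without overlap, and reached 55.7 in the number 5 library with selenite. TBXT was at 1.11 and 0 in WT and 3.52 and 1.19 in KO. LEFTY1 had 2 and 0 counts in WT and 4 and 0 in KO, LEFTY2 0 and 0 in WT and 4 and 1 in KO, and GSC at most 1 count in each of these 4 libraries, so no fold is given for LEFTY2 and GSC.

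**Figure D4:**
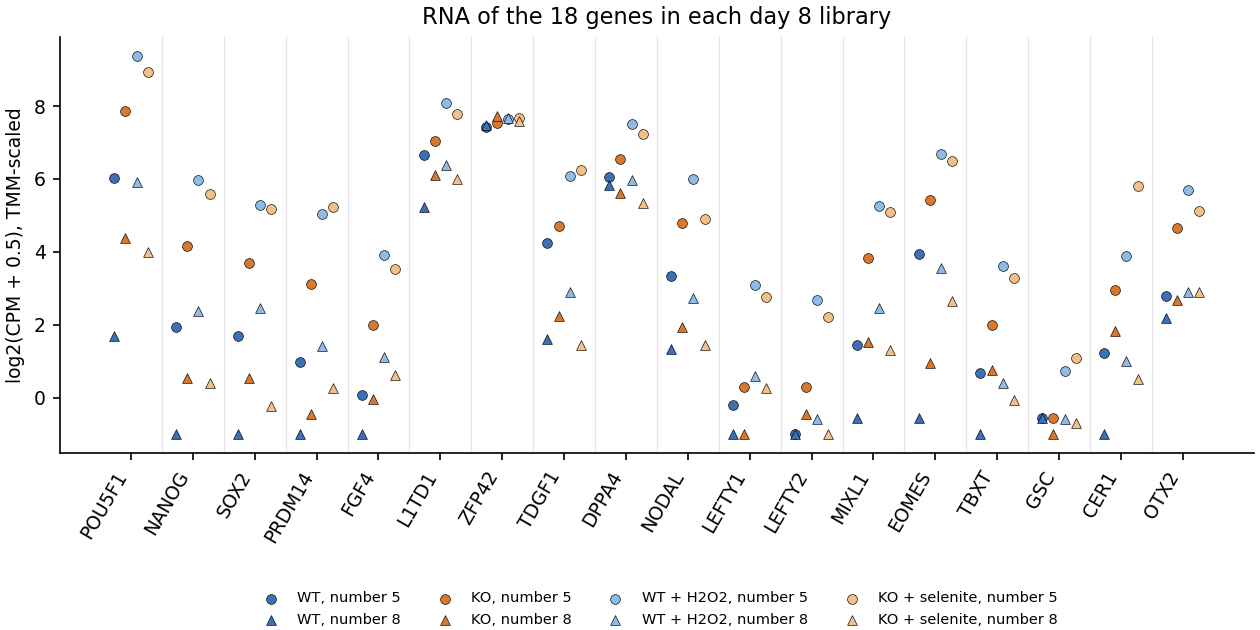
Each mark is one day 8 library, by gene (x) and log2 of scaled CPM plus 0.5 (y); circles are the libraries numbered 5, triangles those numbered 8, and colours the 4 groups. Circles stand above triangles for POU5F1 and most other genes, and the marks of ZFP42 lie together between 171 and 210 CPM.

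No gene of the 18 passed the test between KO and WT. By edgeR's quasi-likelihood test over 14470 genes with Benjamini-Hochberg adjustment, none of the 17 tested (all but GSC) was higher or lower in KO at adjusted p of 0.05, and 0% of all genes tested passed in either direction. GPX2, the targeted gene, did not pass either (log2 fold change -2.07, edgeR adjusted p = 0.104, the lowest of all genes tested). None of the 17 had an unadjusted p under 0.05, where 0.698% of all genes were higher and 0.525% lower, and DESeq2 called none of the 18. The estimated log2 fold change of KO over WT was above 0 for all 17. It was 1.93 ± 1.96 (SE) for POU5F1, 2.48 ± 2.24 for NANOG, 2.30 ± 2.17 for SOX2, 2.74 ± 1.75 for MIXL1, 1.56 ± 1.94 for EOMES, 2.47 ± 2.05 for CER1, 1.4 ± 1.57 for NODAL and 0.18 ± 0.15 for ZFP42. The lowest unadjusted p of the 17, for MIXL1, was 0.160 in that edgeR fit. Without the number 5 KO library the estimate turned negative for 10 of 16 genes, POU5F1 (-0.73), NANOG (-0.80) and SOX2 (-0.54) among them. With 1 library left out in turn, the estimate lay between 0.97 and 5.31 for MIXL1, 0.73 and 6.57 for FGF4 and 1.48 and 7.90 for CER1, highest in each without the number 5 WT library. With the library number as a replicate block, edgeR again called none of the 17 (0% of all genes higher and 0.0138% lower at adjusted p of 0.05), and 12 of the 17 were higher in KO at an unadjusted p under 0.05, where 3.88% of all genes were higher and 2.63% lower. With no filter on low counts, edgeR called 7 of the 18 higher in KO (MIXL1, SOX2, EOMES, POU5F1, PRDM14, CER1 and NANOG) against 0.0737% of the 31189 genes then tested. The estimates of these 7 hardly moved in that fit, but their SEs were much smaller. POU5F1 was at 1.90 ± 0.24 there against 1.93 ± 1.96, and NANOG at 2.46 ± 0.46 against 2.48 ± 2.24. The WT and KO libraries were the same, and why the SEs differed was not tested.

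Within each library number, KO exceeded WT for most of the genes. KO was higher than WT in both numbers for 15 of the 17 genes tested, all but DPPA4 and LEFTY1, where 27.9% of all genes tested were. For POU5F1 the KO to WT ratio was 3.64 in number 5 and 7.41 in number 8, for EOMES 2.86 and 7.75, for MIXL1 6.18 and 12.9, for L1TD1 1.32 and 1.85, and for ZFP42 1.08 and 1.19. Both KO libraries were above both WT libraries for 5 (ZFP42, LEFTY2, MIXL1, TBXT and CER1), against 13.5% of all genes. Number 5 was above number 8 in all 4 groups for 15 of the 17, against 22.9% of all genes, the others being ZFP42 and LEFTY2. WT with H2O2 was above WT in both numbers for all 17 (24.3% of all genes), a comparison that shares its WT libraries with the one above. KO with selenite was above KO in number 5 for all 17 (51.5% of all genes) and in number 8 for 5 (49.9%). The H2O2 and selenite values were not tested. The filter on low counts also used the H2O2 and selenite libraries. With the WT and KO libraries alone, 12 of the 17 passed it, all but PRDM14, FGF4, LEFTY1, LEFTY2 and TBXT. For these genes, the high number 5 values with H2O2 and selenite are partly set by the filter. The counts above that use those values are limited in the same way. In bulk RNA, fewer cells of a type and less RNA per cell cannot be told apart.

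Other genes of the same pathways had no calls either, which could not be otherwise, since none of all 14470 genes tested passed. Of 35 further pluripotency genes, 31 were tested and none passed, with a median log2 fold change of 0.50, and 14 were higher in KO in both numbers. Of 28 NODAL pathway genes, 22 were tested and none passed (median 0.06), with 5 higher in KO in both numbers. Of 32 other mesendoderm and primitive streak genes, 28 were tested and none passed (median 0.13), with 10 higher in both. Over all genes tested, the median was 0.00 and 27.9% were higher in KO in both numbers. Endoderm markers were expressed in every library (10 of 10 tested, a summed level of 3098 to 3986 CPM), and the 6 hepatic markers summed to 5238 to 16230 CPM, lower in number 5 than in number 8 in every group. The 6 markers of undifferentiated cells, which include POU5F1, NANOG and SOX2, summed to 1090 and 749 CPM in WT and 1309 and 793 in KO. Amnion and surface ectoderm markers summed to 909 and 304 in WT and 396 and 618 in KO, and mesoderm markers to 411 and 95.4 in WT and 289 and 244 in KO. The 6 neural markers (3 tested) summed to 129 and 102 in WT and 166 and 145 in KO. In WT and KO, a single gene held the largest part of each of these sums except the hepatic one. There it was FGB or APOA1, depending on the library. For endoderm it was KRT8 (2048 and 1542 in WT, 1756 and 1817 in KO). For undifferentiated cells it was LIN28A (838 and 623 in WT, 758 and 635 in KO), and for amnion GABRP (643 and 224, 196.5 and 478). For mesoderm it was HAND1 (333.5 and 93.35, 188 and 227), and for neural cells NES (125 and 100, 150 and 139). The part of these cell types in the RNA values of the 18 genes was not tested.

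Set side by side, RNA estimates and accessibility differed in size, but the 2 scales are not equivalent. The ATAC ratio is one of folds over background and covers only regions with a peak in both genotypes. The RNA estimates of NANOG, SOX2, MIXL1 and FGF4 had SEs of 1.75 to 2.24. For NANOG, the RNA log2 fold change of 2.48 stood beside a median log2 ratio of 0.03 over 22 shared regions and 0.04 at the outermost start. For SOX2, 2.30 in RNA stood beside -0.11 over 11 regions and -0.17 at the start, and for MIXL1, 2.74 beside -0.03 over 14 regions and 0.05 at the start. For FGF4, 2.80 in RNA stood beside -0.26 at the start, and for ZFP42, 0.18 beside 0.00. The start of SOX2 was called open in both pools, while its RNA was at 0 in one WT library. For NANOG, with RNA at 0 in that library too, the outermost start lay in a shared region and the RefSeq start in none. Peaks were called on pooled libraries from another KO clone, so a ratio per library of the kind available for RNA could not be formed.

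**Figure D5:**
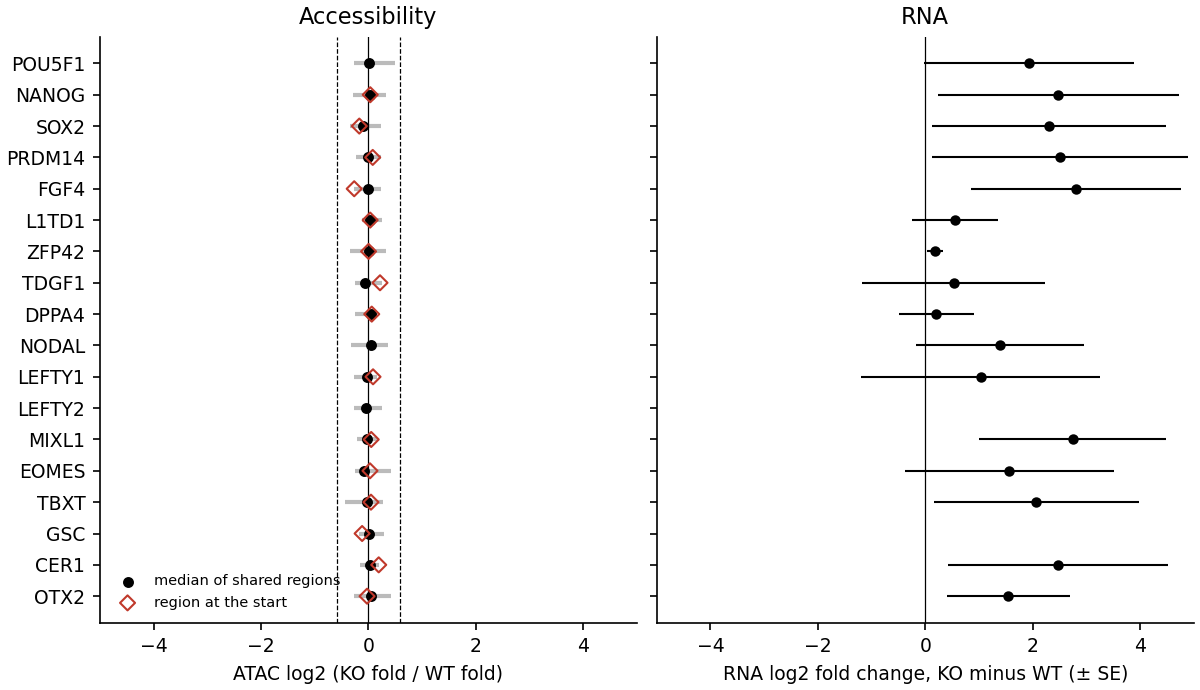
Left, log2 of KO fold over WT fold of the shared regions near each gene (black, median; grey bar, lowest to highest; red diamond, region at the outermost start) with dashed lines at 1.5-fold; right, the RNA log2 fold change of KO minus WT with its SE, 2 libraries per group, LEFTY2 and GSC left out. The accessibility values all lie between -0.43 and 0.50, on the same axis as RNA estimates up to 2.80 with wide errors.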

How the data were processed

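HUES8 cells of day 8 were analysed from 2 peak lists and 1 count table. Per the study's methods, the authors aligned ATAC reads to hg38 with Bowtie2, removed duplicates, mitochondrial and blacklisted reads, merged the libraries of each genotype and called broad peaks with MACS2. The deposited peak columns hold the fold (a ratio of pileup to background) and the −log10 q-value, without replicate values. The authors counted RNA reads per gene with STAR and featureCounts on GRCh38, and the deposited counts are raw and, per the file header, unstranded, so reads of genes that overlap on opposite strands cannot be told apart.

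Peaks overlapping by 1 base were merged, the largest fold per genotype was used, and regions were annotated with GENCODE at their middle. The hg38 sequence used here matched the files' chromosome names, and no peak ran past the end of a chromosome. RNA was tested with edgeR 4.0.16 (TMM, filterByExpr, quasi-likelihood, all 8 libraries, KO minus WT), with DESeq2 1.42.0 as an alternative, in R 4.3.3. CPM use TMM-scaled library sizes. The scripts were tested on simulated data. The other count table and the single-cell matrices of the series were not used here.

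The 18 genes, gene lists, motifs and tests were chosen with earlier results of these data known. The rule for naming took all 18 genes, regions at their starts, the 5 largest folds, the 5 largest one-genotype regions of each kind, the 5 largest ratios each way at a fold of at least 4, and the regions nearest the 100 kb limit. Regions with the highest and lowest ratio at any fold, those near MIXL1, and those around the starts of POU5F1 and NODAL were named after their values were seen. Intervals and floors cover counting error only. The sequence and position of 3 regions are not reported here.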

Additional observations from a re-analysis of the deposited data

How the results depend on the processing

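With only peaks of −log10 q of at least 5, 88.2% of the WT peaks near the 18 genes overlapped a KO peak (79% of all). Of the 129 regions then left near the genes, 13 (10.1%) were WT-only, against 18.6% of all, and 20 (15.5%) KO-only, against 11.4% of all, so KO-only regions outnumbered WT-only ones, the opposite of the order with every peak and of that over all regions. A window of 50 kb held 229 regions, 40 (17.5%) WT-only, against 21.6% of all, and 29 (12.7%) KO-only, against 13.2%. At 1.2-fold, chosen after seeing the data, 16 shared regions were higher and 8 lower in KO, against 0 at 1.5-fold. The other alternatives for peaks (an overlap of 50% of the shorter peak, the lowest coordinate as the start, centring, length-weighted folds and, chosen after seeing the data, RefSeq starts and leaving out POU5F1) stayed within the counting interval of the shares and medians and within 1.5 times the counts, though RefSeq starts lowered the starts in a shared region from 15 to 12 of 18.

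For RNA, edgeR with no filter on low counts called 7 genes of the 18 higher in KO, against 0 in each other fit. The estimates of these 7 hardly moved there while their SEs shrank, and the cause was not tested. The lowest adjusted p among the genes ranged from 5.88e-11 there to 1 with DESeq2. Leaving out 1 library moved the log2 fold change between -0.73 and 5.52 for POU5F1, -0.80 and 8.74 for NANOG, -0.54 and 8.30 for SOX2, -1.56 and 7.63 for PRDM14, -0.018 and 1.44 for L1TD1, -1.32 and 2.56 for TDGF1, -0.34 and 0.60 for DPPA4, -0.81 and 2.91 for NODAL, -3.24 and 4.27 for LEFTY1 and -2.40 and 6.76 for EOMES, lowest without the number 5 KO library in each. The sign held but the size moved for MIXL1 (0.97 to 5.31), FGF4 (0.73 to 6.57), CER1 (1.48 to 7.90), TBXT (1.07 to 6.78), OTX2 (0.17 to 2.22) and ZFP42 (0.087 to 0.27).

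With the library number as a replicate block, edgeR called 0 of the 18 genes, POU5F1 had a log2 fold change of 2.16 (adjusted p = 0.264) and 12 of the 17 tested had an unadjusted p under 0.05, all higher in KO, where 3.88% of all genes were higher and 2.63% lower at that level. Same-numbered libraries deviated together (r of 0.33 to 0.68 across genes between groups), but the labels do not say what a number stands for. The spread between 2 libraries a group limits the RNA estimates, and pooled peak lists allow no error for any ATAC value.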
